A study of Homo sapiens with 9 samples.

Results

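The replication-dependent histone genes are the gene family described here, as they appear in polyA RNA of MOLT4 cells. Members were chosen by symbol: every gene of the HIST1, HIST2, HIST3 or HIST4 loci whose symbol names an H1, H2A, H2B, H3 or H4 histone. This gave 72 of the 23621 genes in the table, of which 6 were H1 genes, 18 H2A, 20 H2B, 13 H3 and 15 H4. MOLT4 is an established human cell line from a T-cell leukemia. Its RNA was sequenced after 6 h in 3 groups of 3 libraries: libraries titled MI-389, libraries titled sunitinib, and vehicle libraries with DMSO at 0.1%. Sunitinib is a kinase inhibitor, and the series design describes MI-389 as a phthalimide conjugate. The source field crosses the compound names: it gives sunitinib at 1 µM for the libraries titled MI-389 and MI-389 at 0.1 µM for the libraries titled sunitinib. Groups are therefore called MI-389-titled, sunitinib-titled and DMSO. Which compound each treated group received cannot be told apart from the labels, and by the source field the doses of the treated groups differed.

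Replication-dependent histone genes supply the core histones H2A, H2B, H3 and H4 and the linker histone H1 that package new DNA during S phase. Most of their messenger RNAs end in a conserved stem-loop instead of a poly(A) tail. The stem-loop binding protein SLBP holds that stem-loop through processing, export, translation and decay. Some members also give longer transcripts that run past the stem-loop to a poly(A) signal, a form described in differentiating and non-dividing cells. A library made from polyA RNA captures that polyadenylated form and little of the stem-loop form, so the levels below are not total histone messenger RNA.

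Values are FPKM, fragments scaled to transcript length and library size, as the authors deposited them. The transcript lengths they used are not given, so levels compared between genes, and their sums, depend on unknown lengths. The table gives FPKM and no read counts, so the depth of each library is unknown. Undetected genes stood near 0.1 FPKM in place of 0. The cell type was checked against marker genes: 12 of 12 T-lineage leukemia markers had a mean of at least 1 FPKM. Their summed level was 3794 to 4037 FPKM in MI-389-titled libraries, 4216 to 4472 FPKM in sunitinib-titled libraries and 3967 to 4987 FPKM in DMSO libraries. Of markers of other cell types, 0 of 5 myeloid genes, 2 of 5 B cell genes and 1 of 6 epithelial and fibroblast genes reached a mean of 1 FPKM. CD79A, at a mean of 8.07 FPKM, and KRT8, at 1.65 FPKM, were the highest of the B cell and of the epithelial and fibroblast genes. The B cell genes summed to 10.6 to 11.8 FPKM in MI-389-titled, 8.97 to 9.65 FPKM in sunitinib-titled and 11.7 to 12.8 FPKM in DMSO libraries. Nothing in the labels states whether the 3 libraries of a group were separate cultures, and every p-value here therefore rests on library-to-library spread that may be technical. In bulk RNA, fewer cells of a type (cells in S phase, for example) and less RNA per cell cannot be told apart.

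The 3′ ends of the member transcripts are shown because they decide which form a polyA library can capture. A search of GENCODE release 29 transcripts (GRCh38, transcript strand) found the histone stem-loop in the transcript models of 32 of the 72 members, or 44.4%, against 2.39% of 19600 other protein-coding genes. In 33 members the models stop at the end of the coding sequence, so no stem-loop could be found in them. All 32 lie among the other 39 members. Stem-loops are printed for 5 members that rose in MI-389-titled libraries and for HIST1H2BH, which fell, and the capitals mark the stem-loop:
HIST2H4A: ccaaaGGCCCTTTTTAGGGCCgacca
HIST1H2AC: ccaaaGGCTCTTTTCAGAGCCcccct
HIST3H2A: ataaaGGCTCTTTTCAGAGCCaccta
HIST3H2BB: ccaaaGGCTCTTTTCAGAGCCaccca
HIST1H4J: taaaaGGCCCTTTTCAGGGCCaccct
HIST1H2BH: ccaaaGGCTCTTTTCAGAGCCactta
These lie at chr1:149833027-149833052 on the + strand for HIST2H4A, chr6:26124664-26124689 on the + strand for HIST1H2AC, and chr1:228457364-228457389 on the - strand for HIST3H2A. HIST3H2BB has its copy at chr1:228458533-228458558 on the + strand, HIST1H4J at chr6:27824454-27824479 on the + strand, and HIST1H2BH at chr6:26252050-26252075 on the + strand. The form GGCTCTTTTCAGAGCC occurred in 16 members, all of them H2A, H2B or H3 genes. H4 genes carried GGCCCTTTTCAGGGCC in 5 members and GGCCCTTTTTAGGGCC in 3. The remaining members with a stem-loop carried 3 other forms.

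Of the 72 members, 54 were measurable, with 1 FPKM or more on average over the 9 libraries: 3 of 6 H1 genes, 14 of 18 H2A, 16 of 20 H2B, 12 of 13 H3 and 9 of 15 H4. Of these 54 genes, 37 had a mean of 1 to 5 FPKM and 17 a mean of 5 FPKM or more. The 9 members at 20 FPKM or more were HIST1H2BH, HIST1H2BK, HIST1H4J, HIST1H4K, HIST2H4A, HIST2H4B, HIST2H2AC, HIST2H2AA3 and HIST2H2AA4. The most abundant member was HIST1H2BH, a core histone H2B gene, with a mean of 61.4 FPKM. The 14 most abundant members held 78.6% of the summed FPKM of all 72.

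The remaining 18 members lay below a mean of 1 FPKM and entered no test. Among them 8 stayed under 0.2 FPKM in every library: HIST1H1A, HIST1H1T, HIST1H2AA, HIST1H2APS1, HIST1H2BA, HIST1H4F, HIST1H4G and HIST3H3. HIST1H1T, HIST1H2BA and HIST3H3 are known as testis histones. Members near that level moved in steps: HIST1H2BB stood between 0.110 and 0.123 FPKM in 7 libraries and at 0.460 and 0.457 FPKM in MI-389-titled replicate 3 and sunitinib-titled replicate 3. The members just above the limit were HIST2H2AB at 1.00, HIST1H4D at 1.05 and HIST1H3C at 1.06 FPKM, and those just below it were HIST1H2BF at 0.984 and HIST1H2AB at 0.945 FPKM.

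Histone genes of a class are close copies, and 3 pairs of rows were nearly the same in every library. HIST2H4A and HIST2H4B had identical values, HIST2H2AA3 and HIST2H2AA4 differed by at most 1.72% and HIST1H4J and HIST1H4K by at most 4.03%. Of the 50-base windows of the HIST2H4A transcripts, 97.5% also occur in another member, as do 100% for HIST1H4K and for HIST2H2AA3. The values of each pair cannot be told apart by copy, since the authors' counting could have split reads between them. Counts below include both copies unless they are given with each twin pair counted once. HIST1H2AM (86.3% of windows shared), HIST1H2AJ (83.7%) and HIST1H2AI (62.3%) are uncertain for the same reason, while HIST1H2AC, HIST1H1C, HIST3H2A, HIST3H2BB and HIST1H2BH share under 2% of their windows.

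**Figure D1:**
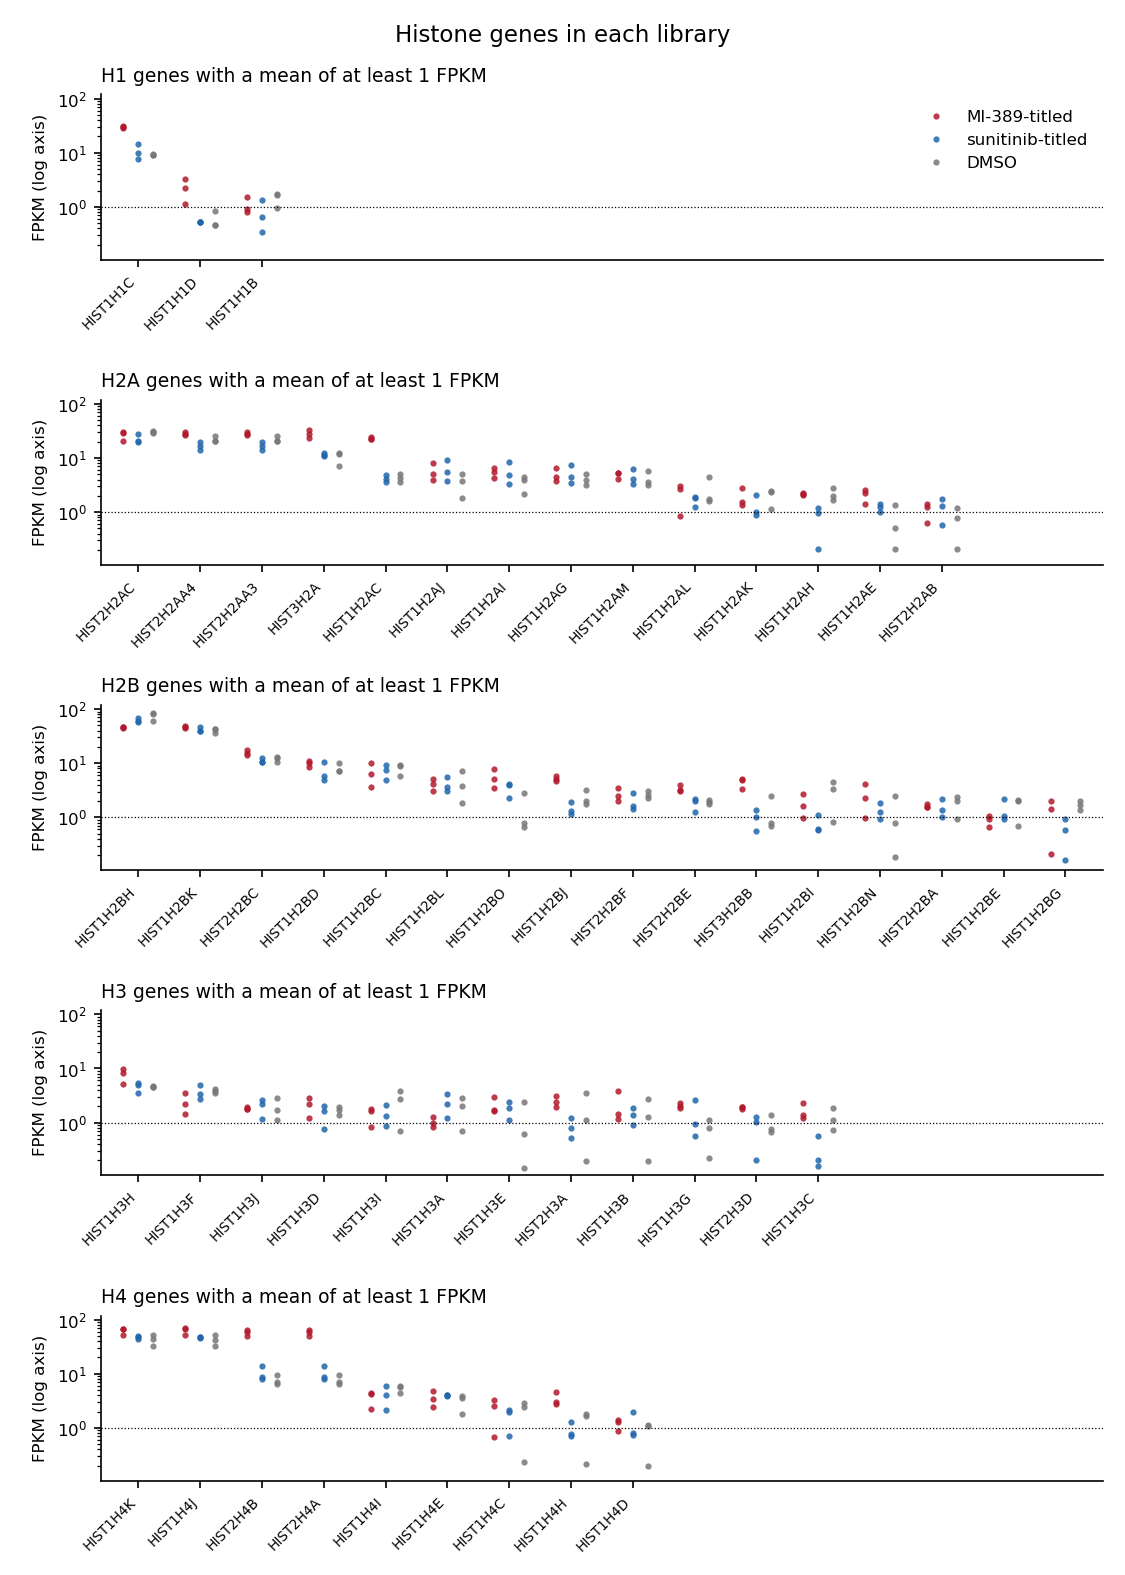
FPKM (log axis) of the 54 measurable histone genes, by class and ordered by mean level, with a point for each library: MI-389-titled in red, sunitinib-titled in blue, DMSO in grey. In HIST2H4A and its twin HIST2H4B, HIST1H2AC, HIST1H1C and HIST3H2A the 3 red points stand clear above the other 6, and in HIST1H2BH they stand below them.

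In the MI-389-titled libraries, polyadenylated histone messenger RNA rose at a limited number of members, against DMSO. The H4 locus HIST2H4A/HIST2H4B rose 7.65-fold, the H2A gene HIST1H2AC 5.33-fold, the linker histone gene HIST1H1C 3.30-fold and the H2A gene HIST3H2A 2.65-fold. The most abundant member, HIST1H2BH, fell to 45.6 ± 0.605 FPKM in MI-389-titled libraries, against 76.5 ± 13.6 FPKM in DMSO libraries (SD, n = 3 each). Of the 54 tested members, 20 rose and 1 fell at an adjusted p under 0.05 (limma on log2(FPKM + 1) over 12301 genes, Benjamini-Hochberg adjustment). That is 38.9% of the members called, where 56.7% of all tested genes were called in this comparison, 28.5% higher and 28.3% lower. The members' median log2 difference was 0.32, beside -0.00 over all tested genes. With each twin pair counted once, 17 of 51 rose and 1 fell, and the median was 0.26. HIST1H1D and HIST1H2AE, among those that rose, passed the 1 FPKM filter only through the MI-389-titled libraries.

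The calls lay mostly among the abundant members. Of the 17 members at 5 FPKM or more, 12 rose and 1 fell, so 70.6% were higher (9 of 14 with each twin pair counted once). The mean that sorts them includes the MI-389-titled libraries. HIST1H2AC and HIST1H3H, both among the 12, averaged 4.19 and 4.60 FPKM in sunitinib-titled and 4.29 and 4.61 FPKM in DMSO libraries. They reached 5 FPKM only through the MI-389-titled libraries, so the count at that level is partly set by their rise. Of all genes with a mean of 5 to 100 FPKM, 61% were called, 35.1% higher and 25.9% lower. Of the 37 members at 1 to 5 FPKM, 8 rose and none fell, or 21.6%, where 33.5% of all genes in that range were called, 19.6% higher and 13.8% lower. The 8 include HIST1H1D and HIST1H2AE, which passed the 1 FPKM filter only through the MI-389-titled libraries, so this count is also partly set by their rise. All 12 HIST2 members were measurable and 6 of them rose. Both measurable HIST3 members rose, and 12 of 40 measurable HIST1 members rose while 1 fell. HIST1H1D and HIST1H2AE are among those 12 as well. The shares that rose were 50% for HIST2 and 30% for HIST1, where 28.5% of all tested genes rose.

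Among linker histones, HIST1H1C had 30.4, 30.8 and 29.1 FPKM in MI-389-titled libraries, 14.4, 9.78 and 7.73 FPKM in sunitinib-titled libraries, and 9.02, 8.95 and 9.37 FPKM in DMSO libraries. All 3 MI-389-titled libraries stood above the other 6, with no overlap. The log2 difference from DMSO was 1.62 ± 0.16 (SE, limma, adjusted p = 3.02e-05). HIST1H1D, another somatic linker histone, averaged 2.20 ± 1.05 FPKM in MI-389-titled libraries and 0.583 ± 0.214 FPKM in DMSO libraries (SD, n = 3 each), a log2 difference of 0.97 ± 0.23 (SE, limma, adjusted p = 0.00551). Its 3 MI-389-titled values ranged from 1.12 to 3.22 FPKM and did not overlap those of DMSO. HIST1H1D averaged 0.525 FPKM in sunitinib-titled libraries, so its mean of 1.10 FPKM passed the 1 FPKM filter only through the MI-389-titled libraries. HIST1H1B averaged 1.07 ± 0.383 FPKM in MI-389-titled and 1.43 ± 0.430 FPKM in DMSO libraries (SD, n = 3 each) and was not called. HIST1H1A and HIST1H1T were at the floor, and HIST1H1E had a mean of 0.880 FPKM.

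Among H2A genes, which encode the core histone that pairs with H2B in the nucleosome, 5 of 14 tested rose and none fell, or 4 of 13 with the twin pair counted once. The latter share was 30.8%, near the 28.5% of all tested genes that rose. HIST1H2AC had 22.0, 22.0 and 24.6 FPKM in MI-389-titled libraries, 3.64, 4.81 and 4.12 FPKM in sunitinib-titled libraries, and 4.96, 3.57 and 4.35 FPKM in DMSO libraries. Its values in the sunitinib-titled and DMSO libraries overlapped each other and lay far below every MI-389-titled value. The log2 difference from DMSO was 2.18 ± 0.11 (SE, limma, adjusted p = 6.71e-07). HIST3H2A had 23.1, 27.3 and 32.3 FPKM in MI-389-titled libraries against 7.07, 12.3 and 11.8 FPKM in DMSO libraries, with no overlap, and a log2 difference of 1.35 ± 0.18 (SE, limma, adjusted p = 0.0002). HIST1H2AE averaged 2.09 ± 0.622 FPKM in MI-389-titled and 0.690 ± 0.589 FPKM in DMSO libraries (SD, n = 3 each; log2 difference 0.91 ± 0.25 SE, limma, adjusted p = 0.0104). HIST1H2AE averaged 1.22 FPKM in sunitinib-titled libraries, and its mean of 1.34 FPKM passed the 1 FPKM filter only through the MI-389-titled libraries. The twin rows HIST2H2AA3 and HIST2H2AA4 rose by 0.34 and 0.33 on the log2 scale (limma, adjusted p = 0.0324 and 0.0414). Leaving out single libraries ended those calls in 5 and 6 of 9 fits, with adjusted p up to 0.108 and 0.132. HIST2H2AC, the most abundant H2A member at 26.2 FPKM, had 29.1, 29.7 and 20.3 FPKM in MI-389-titled libraries and 29.9, 30.9 and 28.7 FPKM in DMSO libraries, which overlapped, and it was not called (log2 difference -0.19, 95% interval -0.54 to 0.16).

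Among H2B genes 6 of 16 tested rose and 1 fell, so 37.5% rose, where 28.5% of all tested genes did. HIST1H2BH had 44.96, 45.8 and 46.1 FPKM in MI-389-titled libraries, 68.0, 59.1 and 58.7 FPKM in sunitinib-titled libraries, and 61.0, 82.1 and 86.5 FPKM in DMSO libraries. Its MI-389-titled values lay close together and below all 6 other libraries, while those of DMSO were spread more widely. The log2 difference from DMSO was -0.72 ± 0.12 (SE, limma, adjusted p = 0.000594). HIST1H2BO averaged 5.47 ± 2.16 FPKM in MI-389-titled and 1.42 ± 1.22 FPKM in DMSO libraries (SD, n = 3 each; log2 difference 1.48 ± 0.35 SE, limma, adjusted p = 0.0051). HIST3H2BB averaged 4.39 ± 0.959 FPKM in MI-389-titled and 1.33 ± 1.04 FPKM in DMSO libraries (SD, n = 3 each; log2 difference 1.28 ± 0.28 SE, limma, adjusted p = 0.0036). HIST1H2BJ and HIST2H2BE rose 2.25-fold and 1.77-fold, and the pseudogene HIST2H2BC 1.31-fold. HIST1H2BK, the second most abundant H2B member, had 49.6, 46.8 and 45.7 FPKM in MI-389-titled libraries and 36.0, 42.1 and 42.6 FPKM in DMSO libraries. The groups did not overlap and the log2 difference was 0.23 (limma, adjusted p = 0.0383), but the call was lost without MI-389-titled replicate 1, 2 or 3 or DMSO replicate 1, with adjusted p up to 0.120. HIST1H2BC and HIST1H2BD, known like HIST1H2BK to give polyadenylated transcripts, averaged 6.67 ± 3.29 and 9.99 ± 1.37 FPKM in MI-389-titled libraries and 7.93 ± 1.94 and 8.21 ± 1.62 FPKM in DMSO libraries (SD, n = 3 each), and neither was called.

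H3 genes were low throughout. Of the 13 genes 12 were measurable, and HIST1H3H was the highest of them. In MI-389-titled libraries against DMSO 2 of the 12 rose, or 16.7%, where 28.5% of all tested genes rose. HIST1H3H had 5.16, 8.13 and 9.75 FPKM in MI-389-titled libraries, 5.32, 3.58 and 4.88 FPKM in sunitinib-titled libraries, and 4.79, 4.57 and 4.47 FPKM in DMSO libraries. MI-389-titled replicate 1 stood just above the highest DMSO library and below sunitinib-titled replicate 1. The log2 difference was 0.59 ± 0.19 (SE, limma, adjusted p = 0.0232), and the call was lost in 4 of the 9 fits that left out a library. HIST1H3G averaged 2.07 ± 0.208 FPKM in MI-389-titled and 0.714 ± 0.463 FPKM in DMSO libraries (SD, n = 3 each; limma, adjusted p = 0.0307), a call lost in 5 of 9 such fits (adjusted p 0.0555 to 0.102). HIST1H3F averaged 2.38 ± 1.01 FPKM in MI-389-titled and 3.81 ± 0.334 FPKM in DMSO libraries (SD, n = 3 each) and missed the threshold (log2 difference -0.55, limma, adjusted p = 0.0585).

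H4 genes held the largest change of the family, with 5 of 9 tested members higher and none lower, or 3 of 7 with each twin pair counted once. Those shares were 55.6% and 42.9%, where 28.5% of all tested genes rose. HIST2H4A, with HIST2H4B at the same values, had 50.3, 59.2 and 64.2 FPKM in MI-389-titled libraries, 7.91, 8.67 and 14.1 FPKM in sunitinib-titled libraries, and 9.32, 6.43 and 6.96 FPKM in DMSO libraries. Every MI-389-titled library exceeded every other library several times over. The log2 difference from DMSO was 2.79 ± 0.20 (SE, limma, adjusted p = 3.8e-06). HIST1H4J had 66.3, 71.1 and 52.5 FPKM in MI-389-titled libraries and 51.6, 42.9 and 31.9 FPKM in DMSO libraries. The lowest MI-389-titled library stood just above the highest DMSO library, and the log2 difference was 0.59 ± 0.16 (SE, limma, adjusted p = 0.01). Its twin HIST1H4K rose by 0.55 on the log2 scale (limma, adjusted p = 0.0141), a call lost without MI-389-titled replicate 2 (limma, adjusted p = 0.0535). HIST1H4H averaged 3.47 ± 1.04 FPKM in MI-389-titled and 1.21 ± 0.871 FPKM in DMSO libraries (SD, n = 3 each; limma, adjusted p = 0.0133), and its adjusted p was 0.0521 without MI-389-titled replicate 1. HIST1H4I ran the other way without passing the test, at 2.19, 4.43 and 4.21 FPKM in MI-389-titled libraries and 5.99, 5.64 and 4.49 FPKM in DMSO libraries (log2 difference -0.50, 95% interval -1.14 to 0.14).

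**Figure D2:**
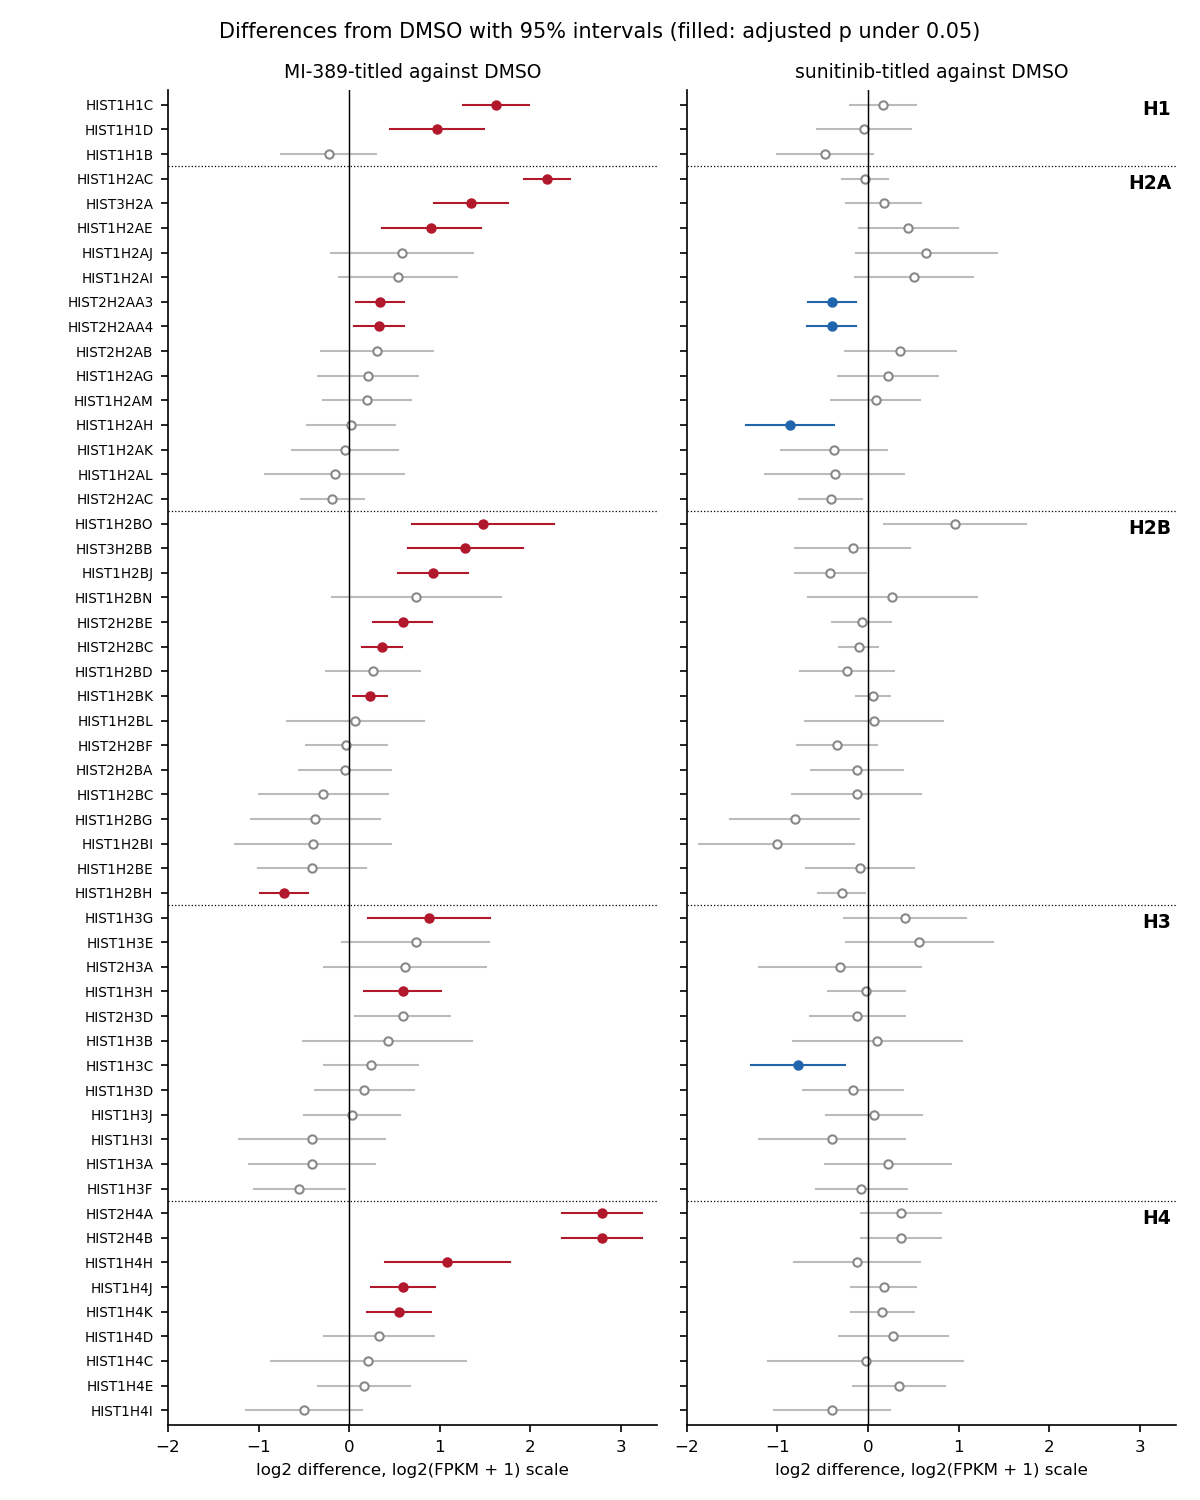
Log2 difference from DMSO on the log2(FPKM + 1) scale for the 54 tested histone genes, with 95% confidence intervals from the limma model, MI-389-titled on the left and sunitinib-titled on the right. Filled points passed an adjusted p of 0.05: 20 higher and 1 lower for MI-389-titled, and 4 lower for sunitinib-titled libraries.

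Summed over all 72 members, the level was 649 ± 11.1 FPKM in MI-389-titled libraries, 414 ± 4.29 FPKM in sunitinib-titled libraries and 435 ± 6.83 FPKM in DMSO libraries (SD, n = 3 each). The sum was 1.49-fold that of DMSO in MI-389-titled and 0.952-fold in sunitinib-titled libraries, and 1.38-fold and 0.939-fold with each twin pair counted once. H4 genes summed to 260 ± 12.2, 129 ± 11 and 115 ± 23.0 FPKM in MI-389-titled, sunitinib-titled and DMSO libraries (SD, n = 3 each). H1 genes summed to 34.5 ± 1.04, 12.9 ± 3.24 and 12.3 ± 0.686 FPKM in the same order of groups, and HIST1H1C was the highest of them in every group. H2A genes summed to 166 ± 6.41 FPKM in MI-389-titled libraries against 114 ± 10.1 FPKM in DMSO libraries. The H2B sum was 160.03 ± 11.1 FPKM in MI-389-titled and 170.25 ± 16.8 FPKM in DMSO libraries (SD, n = 3 each), and the libraries overlapped. H3 genes summed to 28.9 ± 5.18 FPKM in MI-389-titled and 23.4 ± 3.93 FPKM in DMSO libraries, which also overlapped.

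**Figure D3:**
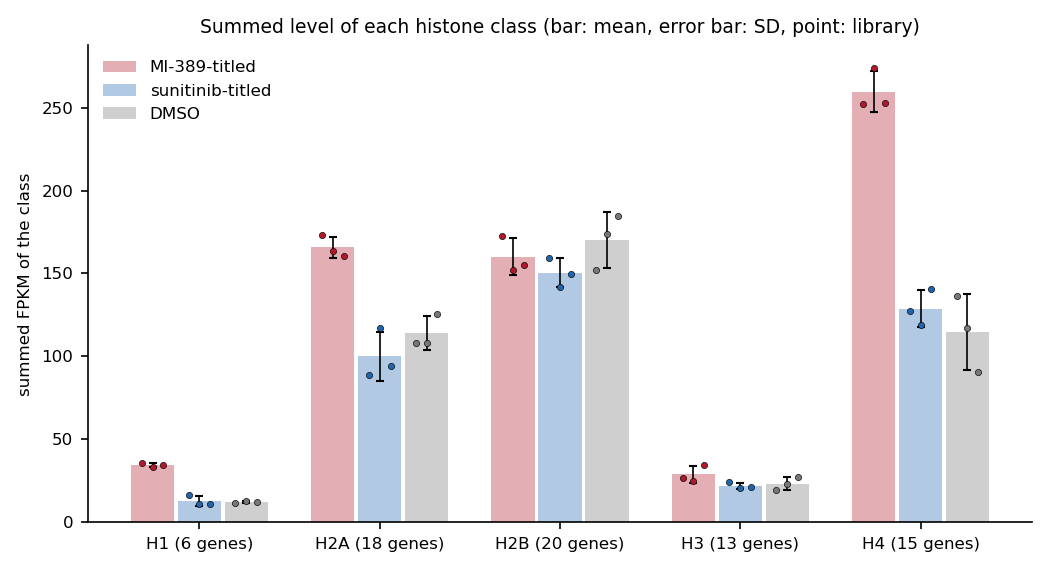
Summed FPKM of each histone class by group, MI-389-titled in red, sunitinib-titled in blue and DMSO in grey, with bars for the mean, error bars for the SD and a point for each of the 3 libraries. The H1, H2A and H4 sums of the MI-389-titled libraries stand above all other libraries, at 34.5, 166 and 260 FPKM. The H2B sums overlap between groups. The H3 sums of MI-389-titled libraries overlap those of DMSO and stand just above those of sunitinib-titled libraries.

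The members that rose were compared by the form of the annotated 3′ end, which the choice of members did not use. A poly(A) signal (the letters AATAAA, or the variant with the letters ATTAAA) lay within the last 50 bases of a transcript model in 23 of 72 members, or 31.9%, against 82.1% of the other protein-coding genes. All 23 of these members were measurable, at a median of 5.63 FPKM, and 13 rose and 1 fell in MI-389-titled libraries against DMSO, with a median log2 difference of 0.59. The search did not ask whether the signal followed the stem-loop. In HIST1H4J, among the 13, the model ends 6 bases past the stem-loop, so the matched letters lie before it. Of the 49 members without such a signal 31 were measurable, at a median of 1.80 FPKM, and 7 rose, with a median of 0.20. The shares that rose were 56.5% with and 22.6% without the signal, where 28.5% of all tested genes rose. Among all genes with a mean of 5 to 100 FPKM 35.1% rose, and among those at 1 to 5 FPKM 19.6%. The difference between the shares with and without the signal was not tested, and the sets also differed in level, which moves with the share called. Transcript models ran at least 100 bases past the stem-loop in 23 members: 1128 bases in HIST1H2AC, 1167 in HIST2H4A, 390 in HIST3H2A and 1640 in HIST1H2BH. Of those 23 members 21 were tested, 10 rose (47.6%) and 1, HIST1H2BH, fell. Where the model ended nearer the stem-loop, 4 of 7 tested members rose (57.1%). Where the model held no stem-loop, 6 of 26 rose (23.1%). These shares were not tested against each other. For 33 members, HIST1H1C, HIST1H2BK and HIST1H4K among them, the models stop at the end of the coding sequence, so no 3′ end is annotated. Their count among members without a signal or without a stem-loop says nothing of their true ends.

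Of 8 members known to give polyadenylated transcripts beside the stem-loop form, 7 were measurable and 5 rose: HIST1H1C, HIST1H2AC, HIST1H2BK, HIST2H2BE and HIST3H2A. HIST1H2BC and HIST1H2BD did not pass, and HIST4H4 had a mean of 0.610 FPKM. Together the 8 summed to 149 ± 3.45 FPKM in MI-389-titled libraries, 85.0 ± 7.03 FPKM in sunitinib-titled libraries and 82.4 ± 5.98 FPKM in DMSO libraries (SD, n = 3 each). That list was known to hold members that changed, so its count is not independent evidence. Outside it, 15 of 47 tested members rose, or 31.9%, and 1 fell, HIST2H4A among the 15. Of all tested genes 28.5% rose.

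**Figure D4:**
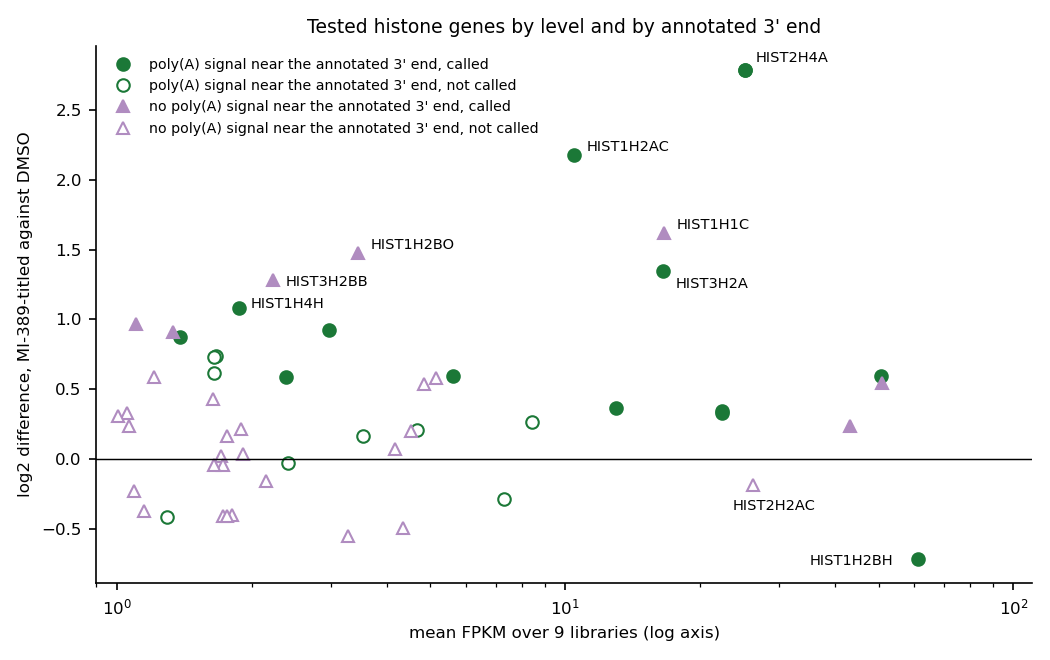
Log2 difference, MI-389-titled against DMSO, of the 54 tested histone genes against their mean FPKM over 9 libraries (log axis). Green circles have a poly(A) signal near an annotated 3′ end and purple triangles have none, and filled symbols passed an adjusted p of 0.05. Of the filled symbols only HIST1H2BH, the most abundant member, lies below 0.

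Promoter windows are printed for 4 members that changed in either direction, because histone genes of a class share promoter elements. RefSeq windows of 250 bases before to 50 bases after the start of transcription (GRCh38.p14) were found for 64 of the 72 members. The capitals mark the motifs that were searched on both strands, which were the CCAAT box, the TATA box spelled TATAAA, and the octamer spelled ATTTGCAT, none of which overlap each other in these windows:
HIST2H4A: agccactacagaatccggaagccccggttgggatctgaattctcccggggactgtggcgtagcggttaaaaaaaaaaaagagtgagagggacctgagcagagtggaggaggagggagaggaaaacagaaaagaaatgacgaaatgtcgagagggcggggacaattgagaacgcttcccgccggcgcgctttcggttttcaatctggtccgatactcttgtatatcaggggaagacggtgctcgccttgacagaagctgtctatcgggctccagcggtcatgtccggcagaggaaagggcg
HIST1H2AC: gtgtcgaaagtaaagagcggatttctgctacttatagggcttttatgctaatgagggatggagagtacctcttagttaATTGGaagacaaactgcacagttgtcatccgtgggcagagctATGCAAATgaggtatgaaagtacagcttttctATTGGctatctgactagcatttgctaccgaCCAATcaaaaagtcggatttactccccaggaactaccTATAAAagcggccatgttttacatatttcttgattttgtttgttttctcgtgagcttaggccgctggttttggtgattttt
HIST3H2A: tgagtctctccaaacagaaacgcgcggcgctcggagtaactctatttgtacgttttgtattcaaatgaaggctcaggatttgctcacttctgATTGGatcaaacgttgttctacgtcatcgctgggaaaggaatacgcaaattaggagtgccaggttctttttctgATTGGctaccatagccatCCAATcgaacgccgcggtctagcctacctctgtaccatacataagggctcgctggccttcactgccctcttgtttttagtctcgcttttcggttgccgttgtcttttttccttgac
HIST1H2BH: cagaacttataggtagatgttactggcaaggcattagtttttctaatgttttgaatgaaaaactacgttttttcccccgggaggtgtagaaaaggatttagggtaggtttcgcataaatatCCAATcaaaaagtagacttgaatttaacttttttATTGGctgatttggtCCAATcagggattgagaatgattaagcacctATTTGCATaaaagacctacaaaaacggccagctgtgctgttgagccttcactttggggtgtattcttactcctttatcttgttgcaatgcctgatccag
The windows are chr1:149832407-149832706 on the + strand for HIST2H4A, chr6:26123922-26124221 on the + strand for HIST1H2AC, chr1:228457824-228458123 on the - strand for HIST3H2A and chr6:26251364-26251663 on the + strand for HIST1H2BH. HIST1H2AC holds 3 CCAAT matches, an octamer and a TATA box, and HIST1H2BH, which fell, holds 3 CCAAT matches and an octamer. The HIST2H4A window, of the member with the largest rise, holds none of these letters.

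A gene was counted for a motif when any of its windows held it, at any position and on either strand. For HIST1H2BC the TATA match lies 220 bases before its start on the opposite strand. Those are the bases of the TATA box 31 bases before the start of HIST1H2AC. Of the 64 members, 84.4% held the CCAAT box, 67.2% the TATA box and 40.6% the octamer. Of all 27305 genes with windows, 39.7%, 14.0% and 2.19% did. CCAAT was found for every H1, H2A, H2B and H3 gene with a window and for 3 of 13 H4 genes. The octamer, which binds OCT1 and is known from H2B promoters, was found for 14 of 18 H2B and 11 of 16 H2A genes. It was found for 1 of 11 H3 genes, HIST1H3D, which has a window at the start of HIST1H2AD, and for no H1 or H4 gene. Where H2A and H2B genes start back to back their windows overlap, so 1 match can count for both genes. The octamer matches of HIST1H2AC and HIST1H2BC are the same bases. Among members that rose in MI-389-titled libraries, 14 of 19 held the CCAAT box, 12 the TATA box and 6 the octamer. Among tested members that were not called, 26 of 28 held the CCAAT box, 19 the TATA box and 12 the octamer. A match is a description of letters in a window and not evidence of binding.

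Many H2A and H2B genes start back to back and share a single stretch of promoter. Among the members there were 12 divergent pairs with starts 194 to 248 bases apart, 11 of an H2A and an H2B gene. The other was the H3 gene HIST1H3D with HIST1H2BF. HIST1H3D has 2 windows, and HIST1H3D and HIST1H2AD each have a start 223 bases from that of HIST1H2BF. The same stretch is therefore counted for both of these pairs. In 8 of the 12 pairs both genes were measurable. Both partners rose in MI-389-titled libraries in 1 pair, HIST3H2A and HIST3H2BB, which start 230 bases apart. In 5 pairs a single partner rose. HIST1H2AC rose by 2.18 on the log2 scale while HIST1H2BC, which starts 246 bases away, had a difference of -0.29. HIST2H2BE rose by 0.59 while HIST2H2AC had -0.19 (interval -0.54 to 0.16). HIST1H2AE, HIST1H2BJ and HIST1H2BO also rose while HIST1H2BG, HIST1H2AG and HIST1H2AM, their partners, were not called, and the difference between partners was not tested.

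In sunitinib-titled libraries few members changed against DMSO. Of 54 tested members none rose and 4 fell, or 7.41%, where 19.3% of all tested genes were called in this comparison, 2.37% higher and 16.9% lower. The members' median log2 difference was -0.06, beside -0.10 over all tested genes. HIST1H2AH had 1.17, 0.943 and 0.205 FPKM in sunitinib-titled libraries against 1.71, 1.99 and 2.78 FPKM in DMSO libraries (log2 difference -0.86 ± 0.22 SE, limma, adjusted p = 0.0237). HIST1H3C had 0.203, 0.155 and 0.556 FPKM in sunitinib-titled libraries against 0.740, 1.13 and 1.88 FPKM in DMSO libraries (log2 difference -0.77 ± 0.23 SE, limma, adjusted p = 0.0457). The groups did not overlap in either gene, but several values were near the floor. The twin rows HIST2H2AA3 and HIST2H2AA4 fell by 0.39 and 0.40 on the log2 scale (limma, adjusted p = 0.0449 and 0.0475). Without DMSO replicate 3 no member was called, without DMSO replicate 2 the only call was another member, and without DMSO replicate 1 there were 9 calls. Leaving out any of the other 6 libraries left 1 or 2 calls. At an unadjusted p under 0.05 there were 10 of 54. The members with the largest rises in MI-389-titled libraries had sunitinib-titled log2 differences from DMSO of 0.36 for HIST2H4A (interval -0.08 to 0.80), -0.03 for HIST1H2AC (-0.28 to 0.23) and 0.16 for HIST1H1C (-0.20 to 0.53). Class medians were small, at -0.05 for H1, 0.03 for H2A, -0.12 for H2B, -0.04 for H3 and 0.17 for H4, and all but that of H2B changed sign under some alternative setting. HIST1H2BH averaged 61.9 ± 5.29 FPKM in sunitinib-titled and 76.5 ± 13.6 FPKM in DMSO libraries (SD, n = 3 each) and was not called (limma, adjusted p = 0.112).

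MI-389-titled and sunitinib-titled libraries were also set against each other. Of 54 members 18 were higher and 1, HIST1H2BH, lower in MI-389-titled libraries, or 35.2%, where 56.3% of all tested genes were called, 36% higher and 20.3% lower. The median log2 difference of the members was 0.36, beside 0.08 over all genes. HIST2H4A differed by 2.43, HIST1H2AC by 2.21, HIST1H1C by 1.46 and HIST3H2BB by 1.45 on the log2 scale. The members called here, but not in MI-389-titled libraries against DMSO, were HIST1H2AH, HIST1H3C and HIST2H3D. Of these, HIST1H2AH and HIST1H3C were called lower in sunitinib-titled libraries against DMSO. The HIST2H3D call was lost in 4 of the 9 fits that left out a library. HIST1H3C and HIST2H3D passed the 1 FPKM filter only through the MI-389-titled libraries. HIST1H2AH had 2.17, 2.10 and 2.28 FPKM in MI-389-titled libraries and 1.17, 0.943 and 0.205 FPKM in sunitinib-titled libraries (log2 difference 0.89 ± 0.22 SE, limma, adjusted p = 0.00617). This comparison and the one against DMSO share the MI-389-titled libraries.

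Genes that act on histone messages were described beside the family. SLBP, which binds the stem-loop, fell to 191 ± 7.17 FPKM in MI-389-titled and 220.04 ± 6.63 FPKM in sunitinib-titled libraries, against 325 ± 22.7 FPKM in DMSO libraries (SD, n = 3 each). Both differences passed (log2 differences -0.76 and -0.56, limma, adjusted p = 8.52e-06 and 0.00131). NPAT, the coactivator of histone gene transcription, averaged 25.8 ± 1.74 FPKM in MI-389-titled, 15.1 ± 0.707 FPKM in sunitinib-titled and 19.0 ± 1.69 FPKM in DMSO libraries (SD, n = 3 each). It rose in MI-389-titled and fell in sunitinib-titled libraries (log2 differences 0.42 and -0.31, limma, adjusted p = 0.00108 and 0.0216). Of 24 tested genes of histone messenger RNA processing and decay, 8 rose and 5 fell in MI-389-titled libraries and none rose and 10 fell in sunitinib-titled libraries, or 54.2% and 41.7% called where 56.7% and 19.3% of all tested genes were. The exonuclease gene XRN1 rose 1.53-fold and the terminal uridylyltransferase gene TUT1 1.49-fold in MI-389-titled libraries, while the cleavage factor genes CPSF3 and CSTF2 fell in both treated groups.

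Of 23 histone chaperone genes, 4 rose and 12 fell in MI-389-titled libraries and none rose and 11 fell in sunitinib-titled libraries. The shares that fell were 52.2% and 47.8%, where 28.3% and 16.9% of all tested genes fell. NASP, which carries H3 and H4 and H1, fell to 261 ± 5.25 FPKM in MI-389-titled and 439 ± 7.78 FPKM in sunitinib-titled libraries, against 559 ± 55.1 FPKM in DMSO libraries (SD, n = 3 each). SUPT16H, a subunit of the chaperone FACT, fell to 0.517-fold the DMSO level in MI-389-titled libraries and CHAF1B, a subunit of the replication-coupled chaperone CAF-1, to 0.671-fold in sunitinib-titled libraries. Of 17 listed S-phase genes 14 fell in MI-389-titled and all 17 in sunitinib-titled libraries, with median log2 differences of -0.41 and -0.39. Of all tested genes 28.3% fell in MI-389-titled and 16.9% in sunitinib-titled libraries. PCNA, the sliding clamp of the replication fork, had 701, 689 and 744 FPKM in MI-389-titled libraries, 1191, 1206 and 1154 FPKM in sunitinib-titled libraries, and 1530, 1806 and 1834 FPKM in DMSO libraries. The 3 groups did not overlap, and the cyclin genes CCNE1 and CCNE2 fell to 0.380-fold and 0.426-fold of DMSO in MI-389-titled libraries. The part that S-phase genes had in the histone levels was not tested.

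Of 10 tested genes of the variant histones, which lie outside the replication-dependent loci by symbol, 4 rose and 4 fell in MI-389-titled libraries and 1 rose in sunitinib-titled libraries. That is 80% and 10% called, where 56.7% and 19.3% of all tested genes were. Most variants are made from polyadenylated messages through the cell cycle, and H2AFX is known to give a stem-loop message as well. H1F0, the linker histone of non-dividing cells, had 223, 221 and 231 FPKM in MI-389-titled libraries, 52.8, 50.8 and 48.3 FPKM in sunitinib-titled libraries, and 41.8, 42.6 and 46.1 FPKM in DMSO libraries. It rose 5.17-fold in MI-389-titled libraries (limma, adjusted p = 4.73e-09) and 1.16-fold in sunitinib-titled libraries (limma, adjusted p = 0.0269). H3F3B, which encodes the replacement histone H3.3, averaged 1240 ± 18.7 FPKM in MI-389-titled, 613 ± 7.44 FPKM in sunitinib-titled and 596 ± 49.1 FPKM in DMSO libraries (SD, n = 3 each), and was called in MI-389-titled libraries (log2 difference 1.06, limma, adjusted p = 1.55e-06). H1FX and H3F3C also rose in MI-389-titled libraries; reads of H3F3C may be shared with H3F3B, its close copy. H2AFZ, H2AFX and the centromeric histone gene CENPA fell there: H2AFZ averaged 1686 ± 35.5 FPKM and H2AFX 173 ± 4.89 FPKM in MI-389-titled libraries, against 2330.2 ± 190.3 FPKM and 233 ± 30.0 FPKM in DMSO libraries (SD, n = 3 each).

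**Figure D5:**
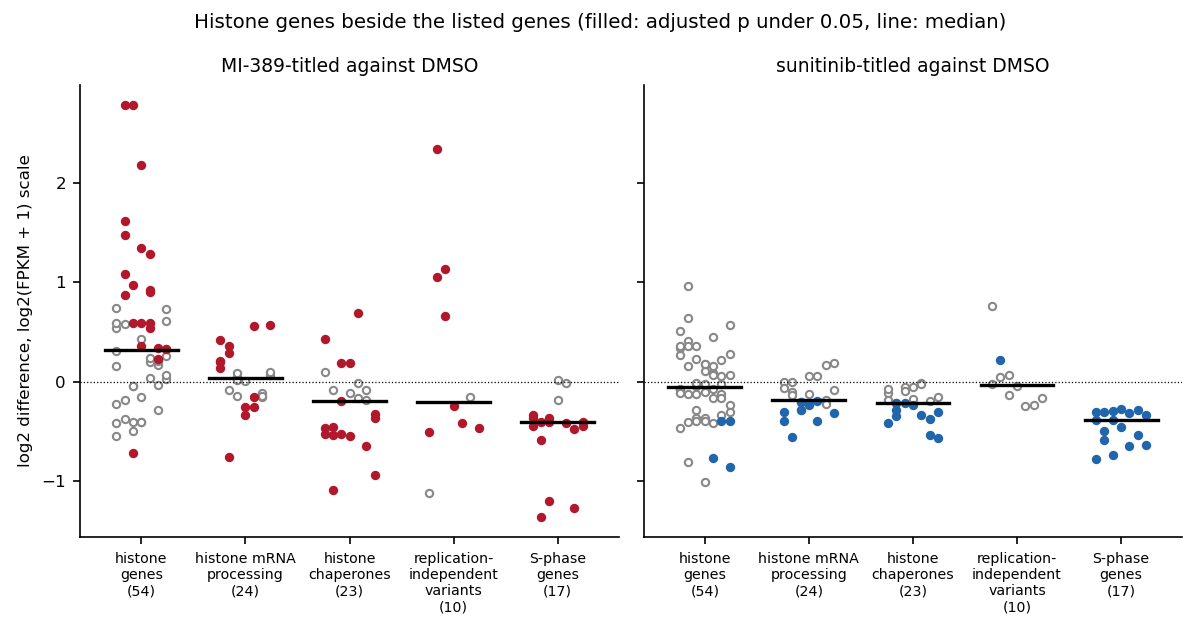
Log2 difference from DMSO of the 54 tested histone genes and of the genes of 4 lists, with the number tested under each name, MI-389-titled on the left and sunitinib-titled on the right. Filled points passed an adjusted p of 0.05 and lines are medians: for MI-389-titled libraries the histone median is 0.32 and the S-phase median -0.41, and for sunitinib-titled libraries they are -0.06 and -0.39.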

How the data were processed

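Libraries came from polyA RNA and the low-input SMARTer v4 kit (strand not marked), and ERCC spike-in RNA was scaled to cell number, per the labels' protocols. The submitters' processing notes name HISAT, Cufflinks 2.0.0 and hg19. The authors made and deposited the FPKM values; which annotation they used, and how libraries were normalized to each other, is not given in the sources used here.

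For 12301 genes averaging 1 FPKM or more, log2(FPKM + 1) was compared by limma 3.58.1 (R 4.3.3): 1 model for all 3 groups of 3 libraries, with trended variance, two-sided p, and Benjamini-Hochberg adjustment over every tested gene at a threshold of 0.05. Folds are ratios of mean FPKM. Log2 differences, SE and 95% intervals come from limma, and the added 1 shrinks changes of low genes. The scripts were tested on simulated data.

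The members and lists were chosen with earlier results of these data known. Every measurable member could be named; of each other list, SLBP, NPAT, H2AFX, H2AFZ, H3F3B and at most 6 called genes with the smallest adjusted p in a comparison. Alternatives were other pseudocounts, filters, normalizations and variance models, a replicate block, the 6 compared libraries alone, and each library left out. Counting near-identical members (within 5% in every library) once was chosen after seeing the data. Sequences were matched by symbol to GENCODE release 29 and RefSeq. Figures used matplotlib 3.10.9.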

Additional observations from a re-analysis of the deposited data

How the results depend on the processing

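For MI-389-titled libraries against DMSO the 21 calls became 13 when a mean of 5 FPKM was required, with 17 members left to test, 14 without a filter, 17 after median centring (15 higher, 2 lower) and 18 after quantile normalization; leaving out single libraries gave 15 to 22. Of the 21 called members 14 were called in every alternative that tested them, 6 of these being below 5 FPKM and so untested at that filter. None of the 21 changed sign, and 13 of the 33 members not called changed sign in at least 1 alternative. The class medians of H2A, H2B, H3 and H4 stayed above 0 in all alternatives and that of H1 was -0.0 without a filter, when genes at the floor are counted.

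For sunitinib-titled libraries against DMSO the 4 calls became 2 with each of a pseudocount of 5, genes restricted to 5 FPKM or more, quantile normalization, median centring, cyclic loess, and no variance trend, 1 in a fit of the 6 compared libraries only, and 0 without a filter. Leaving out single libraries gave 0 to 9. None of the 4 was called in every alternative that tested it. Between the treated groups the 19 calls became 12 at a mean of at least 5 FPKM, leaving out single libraries gave 17 to 22, and 16 of 19 were called in every alternative that tested them, 7 of these being below 5 FPKM.

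Replicate numbers are shared between groups, but same-numbered libraries did not deviate together (correlations of -0.042 to 0.112), so the numbers were not used as pairs. With the replicate block 19, 3 and 20 members were called. Depth is unknown, and members at 1 to 5 FPKM rest on values that move in steps, so a change there may not have been detectable.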
